A study of Eulimnogammarus verrucosus and Eulimnogammarus cyaneus and Gammarus lacustris with 24 samples.

Results

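The 719 gene symbols described here are the entries that the authors' deposited tables of 2 Lake Baikal amphipods, Eulimnogammarus verrucosus and Eulimnogammarus cyaneus, have in common at a mean normalised count of at least 20 in each. They were matched by symbol, ignoring case, and are 719 of the 2043 symbols that both tables hold at any level and of 7186 symbols in the tables of the whole series. For each symbol the effect of 1.5 °C against 12 °C in E. verrucosus was set beside the effect of the same contrast in E. cyaneus, and the difference of both effects was tested. A shared symbol means that both assemblies had a transcript with the same best-named animal match. It does not establish that the transcripts are one-to-one counterparts. Just inside the minimum lay MDC1, with means of 20.1 for E. verrucosus and 27.04 for E. cyaneus, and CIC, with 20.1 and 39.9, in the authors' deposited tables. Just outside it lay CRML-1, with 42.7 for E. verrucosus and 19.96 for E. cyaneus, and TREX2, with 19.8 and 53.9.

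Amphipods are crustaceans whose body temperature follows the water, so every enzyme, membrane and folding protein works at the temperature of the lake. Lake Baikal is cold for most of the year, and its endemic amphipods live along a shore that warms in summer. In ectotherms, long exposure to cold is commonly followed through protein folding, translation, mitochondrial respiration, muscle and membrane lipids, and the gene lists used here cover those functions. Genes that move the same way in related species and genes that move in only one of them answer different questions about such a response.

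Animals were adults from the stony shallows near one Baikal village, collected in the same month, and whole bodies were extracted. All groups were first held at 6 °C for 14 days and then brought to their final temperature in steps over about 6 days. The groups were E. verrucosus kept for 1 month at 1.5 °C, E. verrucosus kept for 1 month at 12 °C, E. cyaneus kept for 1 month at 1.5 °C and E. cyaneus kept for 1 month at 12 °C. Each group had 4 libraries, each from a pool of 3 animals in E. verrucosus and of about 13 in E. cyaneus, so p-values measure the spread between pools, and a pool of E. verrucosus averages over fewer animals. In whole bodies, fewer cells of a type and less RNA per cell cannot be told apart.

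Library totals were 10187151 to 15417652 estimated counts in E. verrucosus and 9110157 to 14222364 in E. cyaneus. The 10 most abundant transcripts took 11.4 to 25.6% of a library. The E. verrucosus library 4 at 1.5 °C and the E. cyaneus library 1 at 12 °C stood apart from all others of their species on the first principal component, and the main counts of calls, shared signs and separated libraries are also given without them. Of 29 markers of muscle, yolk, eye, cuticle, haemocyte, nerve and digestive gland, 11 were listed for E. verrucosus and 13 for E. cyaneus, and every one of those tissues except the digestive gland had a listed marker in both. Counts per library could be joined to 525 members in the E. verrucosus table, to 561 in that of E. cyaneus and to 463 in both. Levels per library are in CPM, counts over library totals adjusted with edgeR's TMM factors, and are not corrected for length. In E. verrucosus these factors ran from 0.799 to 1.34 at 1.5 °C and from 0.733 to 1.21 at 12 °C, and in E. cyaneus from 1.07 to 1.196 at 1.5 °C and from 0.668 to 1.101 at 12 °C. Whether the libraries of a symbol overlap by temperature depends on them. Every fold change is log2 of 1.5 °C over 12 °C, so a positive value is higher in the cold.

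Over all 719 symbols the effects of both species were small and only loosely alike. The authors' deposited tables gave the same sign in both species for 401 symbols (55.8%) and opposite signs for 318, where the shares of positive values in each species alone would give 49.96%. Both effects were positive for 181 symbols and both negative for 220, while 181 were positive in E. verrucosus and negative in E. cyaneus, and 137 were negative in E. verrucosus and positive in E. cyaneus. Across genes, which are not independent replicates, the deposited log2 fold changes had a Pearson r of 0.14 and a Spearman rho of 0.20. The mean levels of the same symbols had a rho of 0.58 across the species. Joined symbols fitted with edgeR gave a same-sign share of 58.1% (269 of 463), an r of 0.16 and a rho of 0.24. That share was 51.0% without the E. verrucosus library 1 at 12 °C, 64.8% without the E. verrucosus library 4 at 1.5 °C and 64.1% without both libraries that stood apart.

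Effects had a similar size in both species. In the authors' deposited tables the median absolute log2 fold change was 0.30 in E. verrucosus and 0.30 in E. cyaneus, set against median standard errors of 0.36 and 0.27. The middle 90% of effects ran from −0.90 to 0.90 in E. verrucosus and from −0.96 to 0.61 in E. cyaneus. Positive values made up 50.3% of symbols in E. verrucosus and 44.2% in E. cyaneus. That balance rests on the scaling. Joined symbols fitted with edgeR and TMM factors had positive shares of 51.4% for E. verrucosus and 51.4% for E. cyaneus, against 51.2% and 42.6% with the authors' own factors. Effects past 1 log2 unit in either direction were found for 59 symbols in E. verrucosus and 47 in E. cyaneus. The level of 62 symbols (8.62%) differed over 10-fold between the species, and without them the same-sign share was 55.4%.

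**Figure D1:**
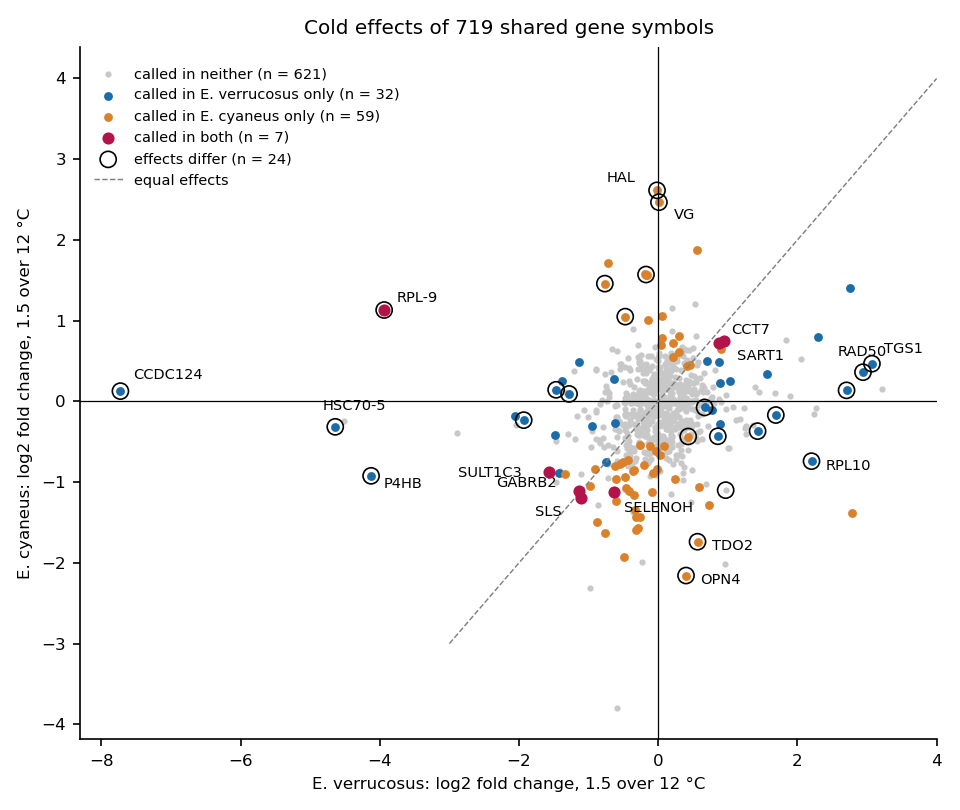
Log2 fold change of 1.5 over 12 °C in E. verrucosus (horizontal) and E. cyaneus (vertical) for 719 shared symbols in the authors' deposited tables, coloured by adjusted p under 0.05 in one, both or neither table, with rings around the 24 symbols whose effects differed. Most points crowd around 0, 6 of the 7 symbols called in both tables lie in the lower left or upper right, and the rings lie far from the dashed line of equal effects.

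Calls at an adjusted p under 0.05 fell mostly in one species or the other. The authors' deposited table of E. verrucosus called 19 symbols higher and 20 lower at 1.5 °C, or 5.42% of members, where it called 2.7% of all its tested entries higher, 1.99% lower and 4.69% in either direction. The deposited table of E. cyaneus called 23 higher and 43 lower, or 9.18% of members, where it called 2.24% of all entries higher, 4.03% lower and 6.27% in either direction. Only 7 symbols were called in both of the authors' deposited tables, 2 of them higher in both, 4 lower in both and 1 in opposite directions, and 621 were called in neither. Among all symbols with an adjusted p in both tables, 0.622% were called in both.

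Each set of calls was then read for direction in the other species. For comparison, all 719 symbols split into 357 negative and 362 positive in the deposited table of E. verrucosus. In that of E. cyaneus they split into 401 negative and 318 positive (44.2%), so its sets have unlike base shares by direction. Of the 43 symbols that the authors' deposited table of E. cyaneus called lower in the cold, 34 (79.1%) were also negative in that of E. verrucosus, with a median there of −0.34. Of the 23 it called higher, 14 (60.9%) were also positive in E. verrucosus, with a median of 0.05. In the other direction, 13 of 20 symbols called lower in the deposited table of E. verrucosus were negative in E. cyaneus (65.0%, median −0.29), and 12 of 19 called higher were positive (63.2%, median 0.25). Symbols called in both tables count in these sets. Without them the deposited tables gave 30 of 39 and 12 of 20 for the calls of E. cyaneus, and 9 of 15 and 10 of 17 for those of E. verrucosus, lower before higher. The symbols called in neither deposited table had the same sign in 334 of 621 cases (53.8%).

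The order of these sets was not the same in edgeR's fit of the joined symbols, and the differences between the shares were not tested. Of the symbols that the deposited table of E. cyaneus called lower, 21 of 27 were negative in edgeR's fit of E. verrucosus, and of those it called higher 9 of 10 were positive. Of the calls of E. verrucosus, 7 of 10 called lower were negative and 8 of 11 called higher were positive in edgeR's fit of E. cyaneus. Leaving out 1 library of the species read gave 19 to 23, 7 to 9, 7 and 6 to 9 symbols for these sets, and leaving out both libraries that stood apart gave 22, 9, 7 and 6.

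Shares of equal sign were also counted by size and level, without a test between them. In the authors' deposited tables, 44 of 59 symbols past 0.5 log2 units in both species had the same sign (74.6%), against 193 of 392 symbols under 0.5 in both (49.2%), and of the 5 symbols past 1 in both 3 had. Symbols whose smaller mean was at least 500 had the same sign in 84 of 125 cases (67.2%), those between 100 and 500 in 125 of 237 (52.7%) and those between 20 and 100 in 192 of 357 (53.8%), again from the deposited tables. Among the 230 symbols with a standard error under the median in both species the share was 60%.

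Higher at 1.5 °C in both species were CCT7, a subunit of the chaperonin ring that folds actin and tubulin, and SART1, a protein of the spliceosome's tri-snRNP. In E. verrucosus CCT7 had 192, 192, 174 and 210.4 CPM in the libraries at 1.5 °C, against 129, 108, 69.7 and 107 CPM at 12 °C. In E. cyaneus it had 275, 315, 325 and 318 CPM at 1.5 °C, against 189, 191, 168 and 149 CPM at 12 °C. All 4 cold libraries lay above all 4 warm ones in each species. The authors' deposited tables gave log2 fold changes of 0.87 (SE 0.27, adjusted p 0.0302) in E. verrucosus and 0.73 (SE 0.15, adjusted p 1.44e-04) in E. cyaneus. The difference of both was 0.15, with a 95% interval from −0.46 to 0.75. CCT7 is the only chaperonin subunit among the 719 symbols. edgeR's quasi-likelihood test gave CCT7 0.89 (SE 0.20, adjusted p 0.021) in E. verrucosus, a call lost in 3 of 16 fits without 1 library, and 0.82 (SE 0.20, adjusted p 0.0986) in E. cyaneus.

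SART1 was joined to transcripts in E. cyaneus, where it had 79.3, 63.3, 70.6 and 79.1 CPM at 1.5 °C, against 53.01, 36.4, 32.8 and 39.2 CPM at 12 °C. These libraries did not overlap. The authors' deposited tables listed SART1 at 0.95 (SE 0.29, adjusted p 0.0279) in E. verrucosus and 0.74 (SE 0.23, adjusted p 0.0288) in E. cyaneus. Their difference was 0.21, with an interval from −0.52 to 0.93.

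Libraries that do not overlap by temperature were also counted, on the TMM-scaled levels and with no test. Of the 463 joined symbols, 23 had all cold libraries above all warm ones in E. verrucosus and 16 had them below, where 4.76% and 3.14% of all joined symbols tested did. In E. cyaneus 40 lay above and 23 below, where 6.85% and 3.48% of joined symbols did. Only CCT7, SSB and PARN lay above in both species (0.348% of all joined symbols did), only GABRB2, SLS and SELENOH lay below in both (0.465%), and 0 went opposite ways. SSB and PARN were singled out after their values were seen. The list depends on the scaling, checked with alternatives chosen after the data were seen. These alternatives were counted over the 463 joined symbols alone. Library totals without TMM factors put 20 symbols above in both species and 1, SLS, below. With them 41 symbols lay above in E. verrucosus and 104 in E. cyaneus. The authors' own factors put 3 above and 4 below. TMM-scaled levels without both libraries that stood apart put 11 above and 6 below, but a group with 1 library fewer separates more easily. Within the species these levels put 49 above and 36 below in E. verrucosus, and 47 above and 41 below in E. cyaneus. CCT7 lay above in both species in all 4 counts. GABRB2 and SELENOH dropped out with library totals, SLS with the authors' factors, and SSB and PARN with either.

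SSB encodes the La protein, which binds the ends of RNA polymerase III transcripts. In E. verrucosus SSB had 42.9, 37.7, 70.7 and 30.6 CPM at 1.5 °C, against 22.2, 23.8, 28.2 and 22.2 CPM at 12 °C. In E. cyaneus it had 515, 413, 351 and 432 CPM at 1.5 °C, against 228, 274, 293 and 348 CPM at 12 °C, so the lowest cold and highest warm libraries nearly met. The authors' deposited tables gave SSB 0.87 (SE 0.27, adjusted p 0.0347) in E. verrucosus and 0.49 (SE 0.20, adjusted p 0.135) in E. cyaneus. PARN encodes a nuclease that shortens poly(A) tails. Its libraries in E. verrucosus held 14.5, 13.1, 15.5 and 12.9 CPM at 1.5 °C, against 11.7, 11.1, 9.04 and 11.4 CPM at 12 °C. In E. cyaneus they held 7.34, 8.57, 7.90 and 6.38 CPM at 1.5 °C, against 2.37, 5.41, 4.89 and 6.15 CPM at 12 °C. PARN passed the test in neither of the authors' deposited tables, which listed it at 0.35 (SE 0.20, adjusted p 0.439) in E. verrucosus and 0.57 (SE 0.28, adjusted p 0.246) in E. cyaneus.

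**Figure D2:**
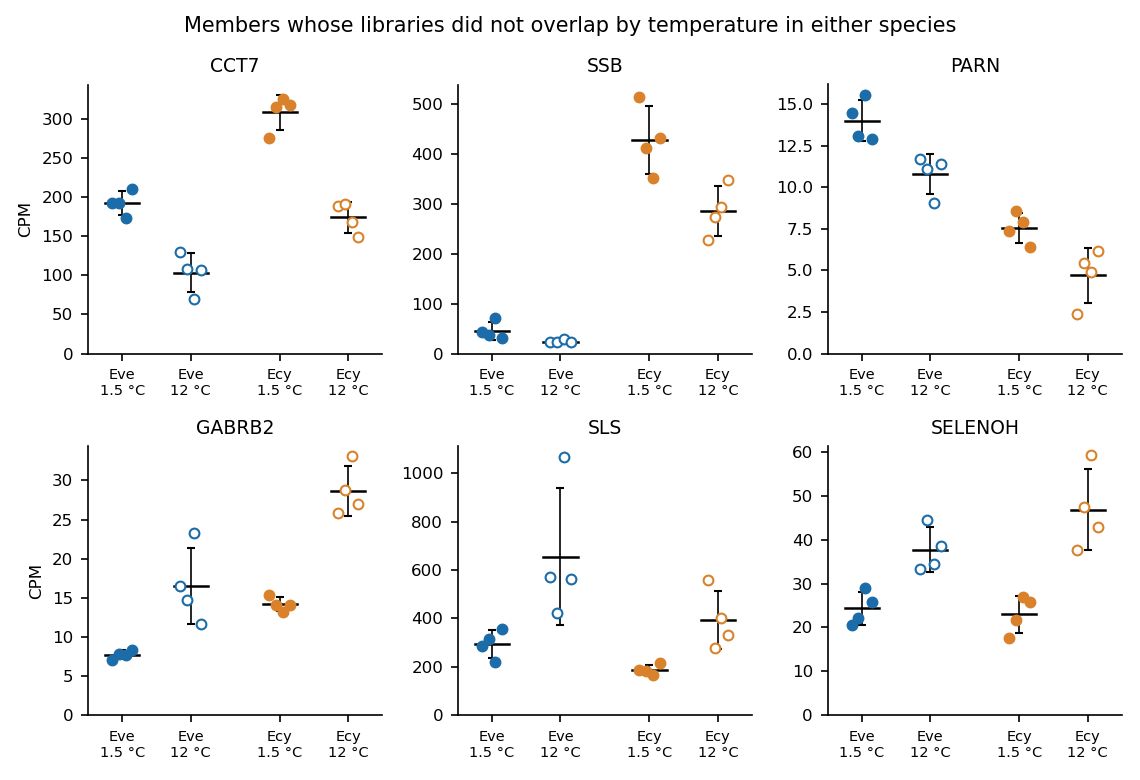
CPM of each library for the 6 joined symbols whose 1.5 °C libraries (filled) and 12 °C libraries (open) did not overlap on the TMM scale in E. verrucosus (Eve, blue) or E. cyaneus (Ecy, orange), with the group mean as a line and the SD as a bar (n = 4). CCT7, SSB and PARN lie higher at 1.5 °C in both species, and GABRB2, SLS and SELENOH lie lower.

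Lower at 1.5 °C in both species were 4 symbols of unlike function. GABRB2, the name of a subunit of the GABA-gated chloride channel of nerve cells, had 7.01, 7.80, 7.63 and 8.36 CPM at 1.5 °C in E. verrucosus, against 16.5, 14.7, 23.2 and 11.7 CPM at 12 °C. In E. cyaneus it had 15.3, 14.1, 13.2 and 14.1 CPM at 1.5 °C, against 25.8, 28.7, 33.1 and 27.01 CPM at 12 °C. The cold libraries were tightly grouped and lay below every warm library in both. In the authors' deposited tables GABRB2 was at −1.13 (SE 0.30, adjusted p 0.0076) in E. verrucosus and −1.11 (SE 0.16, adjusted p 2.28e-09) in E. cyaneus. The difference was −0.02, with an interval from −0.69 to 0.66. It was the 1 member that edgeR's quasi-likelihood test called in both species, at −1.10 (SE 0.21, adjusted p 0.00458) in E. verrucosus and −1.02 (SE 0.20, adjusted p 0.046) in E. cyaneus. The call in E. verrucosus held in all 16 fits without 1 library, and that in E. cyaneus was lost in 11 of them, where its adjusted p reached 0.175.

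SLS, named after sallimus, the elastic titin-like protein of the insect sarcomere, had 287, 314, 219 and 355 CPM at 1.5 °C in E. verrucosus, against 572, 420.2, 1068 and 562 CPM at 12 °C. In E. cyaneus SLS had 186, 181, 166 and 214 CPM at 1.5 °C, against 557, 279, 402 and 332 CPM at 12 °C. No cold library reached a warm one in either species. The authors' deposited tables put SLS at −1.11 (SE 0.36, adjusted p 0.0481) in E. verrucosus and −1.19 (SE 0.26, adjusted p 3.46e-04) in E. cyaneus, a difference of 0.08 with an interval from −0.80 to 0.95. edgeR's test gave −1.16 (adjusted p 0.0366) in E. verrucosus, a call lost in 10 of 16 fits without 1 library, and −1.07 (adjusted p 0.112) in E. cyaneus.

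SELENOH encodes a small nuclear selenoprotein with a thioredoxin-like fold. In E. verrucosus SELENOH had 20.5, 22.2, 29.0 and 25.8 CPM at 1.5 °C, against 33.3, 44.6, 34.6 and 38.6 CPM at 12 °C. In E. cyaneus it had 17.5, 21.7, 26.9 and 25.8 CPM at 1.5 °C, against 37.6, 47.5, 59.4 and 42.9 CPM at 12 °C. The groups did not overlap in either species. The authors' deposited tables gave −0.64 (SE 0.20, adjusted p 0.0384) in E. verrucosus and −1.12 (SE 0.19, adjusted p 1.02e-06) in E. cyaneus, which differ by 0.48 with an interval from −0.07 to 1.02. With edgeR's test SELENOH passed in E. cyaneus alone (−1.03, adjusted p 0.046, lost in 11 of 16 fits without 1 library) and had an adjusted p of 0.0902 in E. verrucosus.

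SULT1C3 is named after a sulfotransferase that attaches sulfate to small molecules. In E. verrucosus SULT1C3 had 95.2, 112, 70.1 and 65.6 CPM at 1.5 °C, against 102, 289, 280.3 and 350 CPM at 12 °C. One warm library lay within the cold range, and the other warm libraries were well above it. The authors' deposited tables gave −1.57 (SE 0.36, adjusted p 0.00101) in E. verrucosus and −0.88 (SE 0.26, adjusted p 0.0195) in E. cyaneus, a difference of −0.69 with an interval from −1.56 to 0.19. For all 6 symbols called in one direction in both tables the interval of the difference included 0, and it was wide enough to hold effects that differ by a good part of their size.

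Muscle and sarcomere proteins were the list with the most uniform sign. All 8 were negative in both of the authors' deposited tables, with medians of −0.93 in E. verrucosus and −1.12 in E. cyaneus, where the medians over all 719 symbols were 0.00 and −0.06. One passed the test in E. verrucosus (SLS) and 5 in E. cyaneus. MLC2, a myosin light chain, had 2540, 5037, 3984 and 17770 CPM at 1.5 °C in E. verrucosus, against 18750, 5460, 7619 and 4722 CPM at 12 °C. The groups overlapped through the cold library 4, which stood apart, and also through the cold library 2, which lay above the warm library 4. In E. cyaneus it had 2408, 2739, 4222 and 4392 CPM at 1.5 °C, against 13590, 8408, 8303 and 3866 CPM at 12 °C. The authors' deposited tables gave MLC2 −0.32 (SE 0.67, adjusted p 0.92) in E. verrucosus and −1.43 (SE 0.34, adjusted p 0.0017) in E. cyaneus.

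The giant sarcomere protein UNC-89 (obscurin in vertebrates) had 523, 735, 413 and 885 CPM at 1.5 °C in E. verrucosus, against 1621, 722, 1429 and 804 CPM at 12 °C. In E. cyaneus UNC-89 had 2405, 2125, 1791 and 2873 CPM at 1.5 °C, against 11710, 3345, 3493 and 4511 CPM at 12 °C, with no overlap and with the warm library 1 far above the rest. TNNI1, the inhibitory troponin subunit, had 3025, 1399, 2238 and 2845 CPM at 1.5 °C in E. cyaneus, against 5297, 6529, 3201 and 3300 CPM at 12 °C. For UNC-89 the authors' deposited tables gave −0.87 (SE 0.42, adjusted p 0.29) in E. verrucosus and −1.49 (SE 0.41, adjusted p 0.011) in E. cyaneus. For TNNI1 they gave −0.99 (SE 0.61, adjusted p 0.50) and −1.04 (SE 0.31, adjusted p 0.019). The 5 joined muscle symbols had edgeR medians of −0.55 in E. verrucosus and −1.07 in E. cyaneus. Without the E. verrucosus library 4 at 1.5 °C the first median was −1.25, and over fits without 1 library the medians ran from −1.25 to −0.29 in E. verrucosus and from −1.21 to −0.73 in E. cyaneus. The receptors and channels list, which holds GABRB2, had medians of −0.90 in E. verrucosus and −0.47 in E. cyaneus over 5 symbols. It also holds RYR2, the calcium release channel of muscle, at −0.90 (SE 0.43, adjusted p 0.29) in E. verrucosus and −0.83 (SE 0.22, adjusted p 0.0062) in E. cyaneus in the authors' deposited tables.

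Nuclear genes of the respiratory chain and ATP synthase were the other list with one sign throughout. All 6 were negative in both of the authors' deposited tables, with medians of −0.31 in E. verrucosus and −0.53 in E. cyaneus. None passed the test in E. verrucosus, and 3 passed in E. cyaneus. COX6C, a small subunit of cytochrome c oxidase, had 93.5, 87.3, 91.5 and 240.3 CPM at 1.5 °C in E. verrucosus, against 214, 163, 160 and 135 CPM at 12 °C. In 3 of the cold libraries COX6C lay below every warm one, and in the fourth, which stood apart, it lay above them all. In E. cyaneus it had 122.9, 156, 213 and 201 CPM at 1.5 °C, against 351, 382, 288 and 176 CPM at 12 °C. The authors' deposited tables gave COX6C −0.36 (SE 0.42, adjusted p 0.82) in E. verrucosus and −0.86 (SE 0.26, adjusted p 0.019) in E. cyaneus. NDUFA12 of complex I passed in E. cyaneus at −1.11 (SE 0.36, adjusted p 0.041) and was at −0.41 (SE 0.51, adjusted p 0.84) in E. verrucosus in those tables. The edgeR medians of these 6 symbols were −0.34 in E. verrucosus (−0.66 without its cold library 4) and −0.42 in E. cyaneus. Over fits without 1 library they stayed negative, from −0.66 to −0.18 in E. verrucosus and from −0.51 to −0.36 in E. cyaneus.

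Of 22 lists with at least 5 members, 12 had medians of the same sign in both species, 10 of them negative and 2 positive, counted in the authors' deposited tables. Of the 18 of them with at least 3 joined symbols, 13 (72.2%) had edgeR medians of the same sign, where 10 (55.6%) had deposited medians of the same sign. That edgeR share ran from 61.1 to 77.8% without 1 library and was 77.8% without both that stood apart. Cytochrome P450 and other biotransformation genes had medians of −0.41 in E. verrucosus and −0.32 in E. cyaneus over 6 symbols, of which 5 were negative in both. There 1 symbol passed in E. verrucosus and 2 in E. cyaneus, SULT1C3 in each and UGT37B1, a glucuronosyltransferase-like gene, in E. cyaneus (−0.86 in the authors' deposited table, with SE 0.26 and adjusted p 0.019). UGT37B1 in E. cyaneus had 14.9, 7.84, 9.20 and 14.1 CPM at 1.5 °C, against 15.9, 22.7, 15.3 and 19.4 CPM at 12 °C, with no overlap.

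The 2 lists with positive medians in both species were ubiquitin conjugation and removal (16 symbols, 0.40 for E. verrucosus and 0.19 for E. cyaneus) and DNA replication and cell cycle (9 symbols, 0.21 and 0.12). Of the ubiquitin list 9 symbols were positive in both of the authors' deposited tables, 2 passed as higher in E. verrucosus and 1 as higher in E. cyaneus, and none passed as lower. USP39, a ubiquitin-protease-like splicing factor, had 24.6, 24.8, 23.5 and 15.0 CPM at 1.5 °C in E. verrucosus, against 11.0, 14.6, 18.1 and 16.2 CPM at 12 °C, with an overlap. In E. cyaneus it had 21.8, 19.3, 21.8 and 25.6 CPM at 1.5 °C, against 12.8, 15.4, 14.4 and 17.6 CPM at 12 °C, with none. The authors' deposited tables gave USP39 0.70 (SE 0.20, adjusted p 0.019) in E. verrucosus and 0.50 (SE 0.18, adjusted p 0.073) in E. cyaneus. UBQLN1, a shuttle factor that brings ubiquitinated proteins to the proteasome, passed in E. cyaneus at 0.45 (SE 0.15, adjusted p 0.042) and was at 0.46 (SE 0.29, adjusted p 0.51) in E. verrucosus in those tables. In the replication list no symbol passed in either table, and 5 were positive in both. The edgeR medians of its 6 joined symbols were 0.22 in E. verrucosus and 0.008 in E. cyaneus. Over fits without 1 library these ran from −0.03 to 0.36 and from −0.07 to 0.11, so the shared sign was not stable. For the 9 joined ubiquitin symbols they were 0.37 and 0.37, with ranges from 0.19 to 0.50 and from 0.30 to 0.52.

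**Figure D3:**
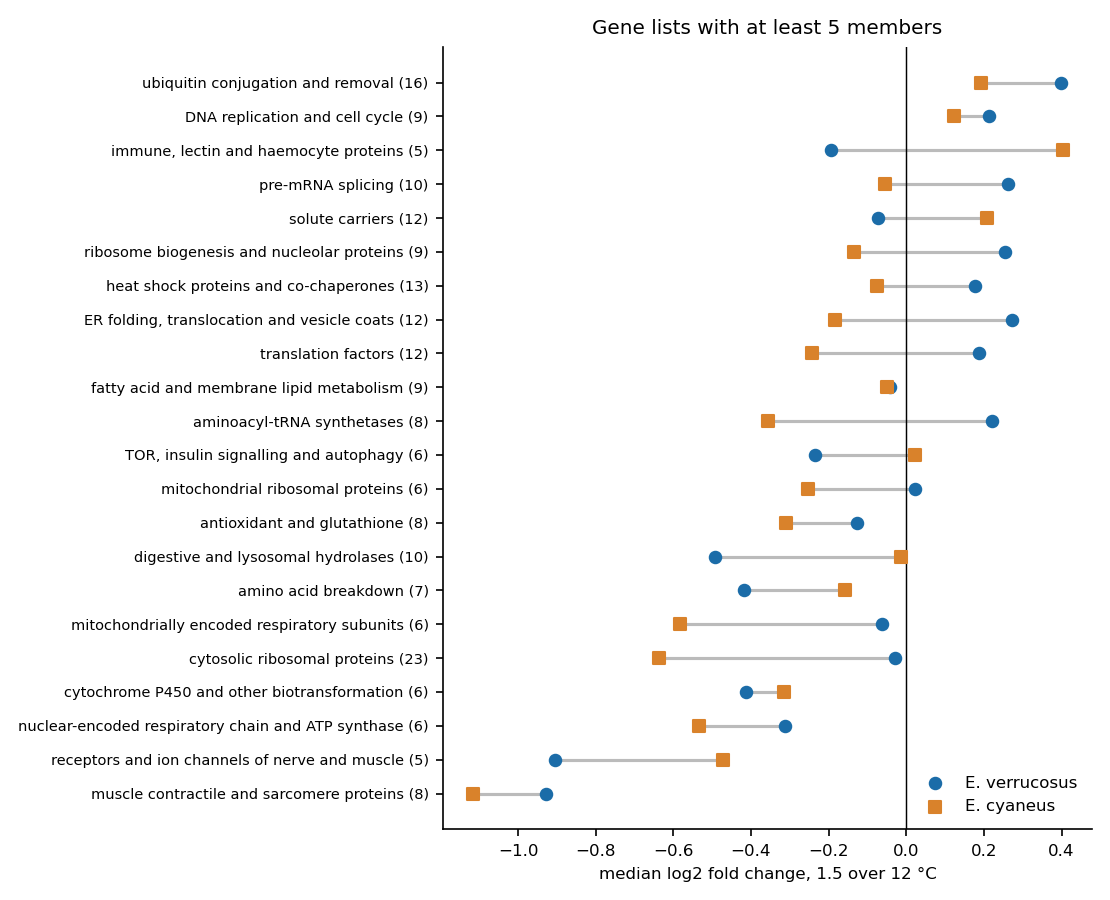
Median log2 fold change of 1.5 over 12 °C in the authors' deposited tables for each gene list with at least 5 members (number in brackets), with circles for E. verrucosus and squares for E. cyaneus. Muscle proteins lie lowest in both species, and ubiquitin and replication genes lie above 0 in both. The lists of protein synthesis lie higher in E. verrucosus than in E. cyaneus, as do several other lists.

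Genes of protein synthesis had higher medians in E. verrucosus than in E. cyaneus in the authors' deposited tables, a gap that was not tested. It was not particular to them, since the median difference over all 719 symbols was 0.11. Endoplasmic reticulum folding and transport (0.27 and −0.18) and the ubiquitin list (0.40 and 0.19) also lay higher in E. verrucosus. Some other lists, such as solute carriers (−0.07 and 0.21), lay lower there. Cytosolic ribosomal proteins had medians of −0.03 in E. verrucosus and −0.64 in E. cyaneus over 23 symbols in the authors' deposited tables. In E. verrucosus 2 passed as higher and 1 as lower, and in E. cyaneus 1 passed as higher and 4 as lower. This list does not hold RPL-9, a ribosomal name called in both tables that is described below. In E. cyaneus RPLP2, an acidic protein of the ribosomal stalk, had 414, 489, 636 and 646 CPM at 1.5 °C, against 1434, 1079, 732 and 748 CPM at 12 °C. The level of 13 of the 23 symbols differed over 10-fold between the species. The other 10 had medians of −0.11 in E. verrucosus and −0.61 in E. cyaneus. Translation factors had medians of 0.19 in E. verrucosus and −0.24 in E. cyaneus over 12 symbols, aminoacyl-tRNA synthetases 0.22 and −0.36 over 8, ribosome biogenesis proteins 0.25 and −0.13 over 9, and splicing proteins 0.26 and −0.05 over 10. The edgeR medians of the few joined members were 0.14 in E. verrucosus and −0.58 in E. cyaneus for 3 ribosomal proteins. They were 0.29 and 0.10 for 4 translation factors, and −0.16 and −0.43 for 2 synthetases. For 5 ribosome biogenesis proteins they were 0.14 and −0.03, and for 4 splicing proteins 0.45 and 0.02. Of these lists only ribosome biogenesis proteins kept the signs of the deposited tables in both species. Few of these symbols passed a test, 2 translation factors and 2 synthetases as lower in E. cyaneus, 1 ribosome biogenesis protein as higher in E. verrucosus and 1 splicing protein as higher in E. cyaneus.

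GAR1, a protein of the particles that make pseudouridine in RNA, was the ribosome biogenesis call. It had 34.9, 34.1, 37.4 and 42.8 CPM at 1.5 °C in E. verrucosus, against 22.3, 23.5, 14.6 and 14.5 CPM at 12 °C. In E. cyaneus GAR1 had 49.6, 34.3, 40.1 and 44.9 CPM at 1.5 °C, against 33.2, 29.9, 33.6 and 36.6 CPM at 12 °C, with a small overlap. The authors' deposited tables gave GAR1 1.03 (SE 0.26, adjusted p 0.0051) in E. verrucosus and 0.25 (SE 0.20, adjusted p 0.55) in E. cyaneus. TARS, the threonyl-tRNA synthetase, was among the calls of E. cyaneus, at −0.56 (SE 0.16, adjusted p 0.014), and was at −0.12 (SE 0.27, adjusted p 0.93) in E. verrucosus. The effects of GAR1 differed by 0.77 (interval 0.12 to 1.42, adjusted p 0.371 over all matched symbols) and those of TARS by 0.43 (interval −0.18 to 1.05, adjusted p 0.789) in a Wald test of the deposited values.

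Folding genes outside the chaperonin had weak medians, 0.18 in E. verrucosus and −0.08 in E. cyaneus over 13 heat shock proteins and co-chaperones, and 0.27 and −0.18 over 12 proteins of endoplasmic reticulum folding and transport, in the authors' deposited tables. The edgeR medians of their 6 and 9 joined members were 0.25 and 0.05, and 0.34 and −0.01. The level of 4 of the 13 heat shock symbols differed over 10-fold between the species. HSPA8, a constitutive Hsp70, had 92.6, 64.7, 86.6 and 55.4 CPM at 1.5 °C in E. verrucosus, against 33.4, 49.9, 26.6 and 49.4 CPM at 12 °C, with no overlap. In E. cyaneus it had 1.65, 1.86, 2.83 and 2.76 CPM at 1.5 °C, against 0.395, 2.46, 2.40 and 5.03 CPM at 12 °C. These low levels rest on 122 counts over the libraries at 1.5 °C and 118 over those at 12 °C. The authors' deposited tables gave HSPA8 0.89 (SE 0.26, adjusted p 0.017) in E. verrucosus and −0.29 (SE 0.53, adjusted p 0.84) in E. cyaneus. No member of this list passed in E. cyaneus, and the inducible HSPA1A was at −0.90 (SE 0.41, adjusted p 0.25) in E. verrucosus and −0.11 (SE 0.19, adjusted p 0.82) in E. cyaneus.

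Smaller medians were found for lipid metabolism (−0.04 in E. verrucosus and −0.05 in E. cyaneus), antioxidant genes (−0.13 and −0.31), solute carriers (−0.07 and 0.21) and TOR and insulin signalling (−0.23 and 0.02). SCD, the desaturase that puts the first double bond into saturated fatty acids, had 1233, 1505, 1872 and 1836 CPM at 1.5 °C in E. cyaneus, against 913, 847, 1016 and 689 CPM at 12 °C, with no overlap. In E. verrucosus SCD had 223, 347, 204 and 74.6 CPM at 1.5 °C, against 82.6, 123.2, 262 and 193 CPM at 12 °C, with full overlap. It passed in the authors' deposited table of E. cyaneus at 0.81 (SE 0.18, adjusted p 5.98e-04) and was at 0.30 (SE 0.47, adjusted p 0.88) in that of E. verrucosus. The difference was −0.51, with an interval from −1.49 to 0.48.

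The effects of the species differed for 24 of the 719 symbols in a Wald test of the deposited log2 fold changes, adjusted over all 2043 matched symbols. The effect in E. verrucosus minus that in E. cyaneus was positive for 12 and negative for 12, where 0.979% and 0.881% of all matched symbols passed in those directions and 1.86% in all. Of these 24, 17 had opposite signs and 7 the same sign with unlike size. The deposited tables called 14 of them in E. verrucosus only, 8 in E. cyaneus only, 1 in both and 1 in neither. At an unadjusted p under 0.05 there were 98 of the 719, with no share over all matched symbols to set beside it. For 5 of the 24 the level itself differed over 10-fold between the species, and for 19 it did not.

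**Figure D4:**
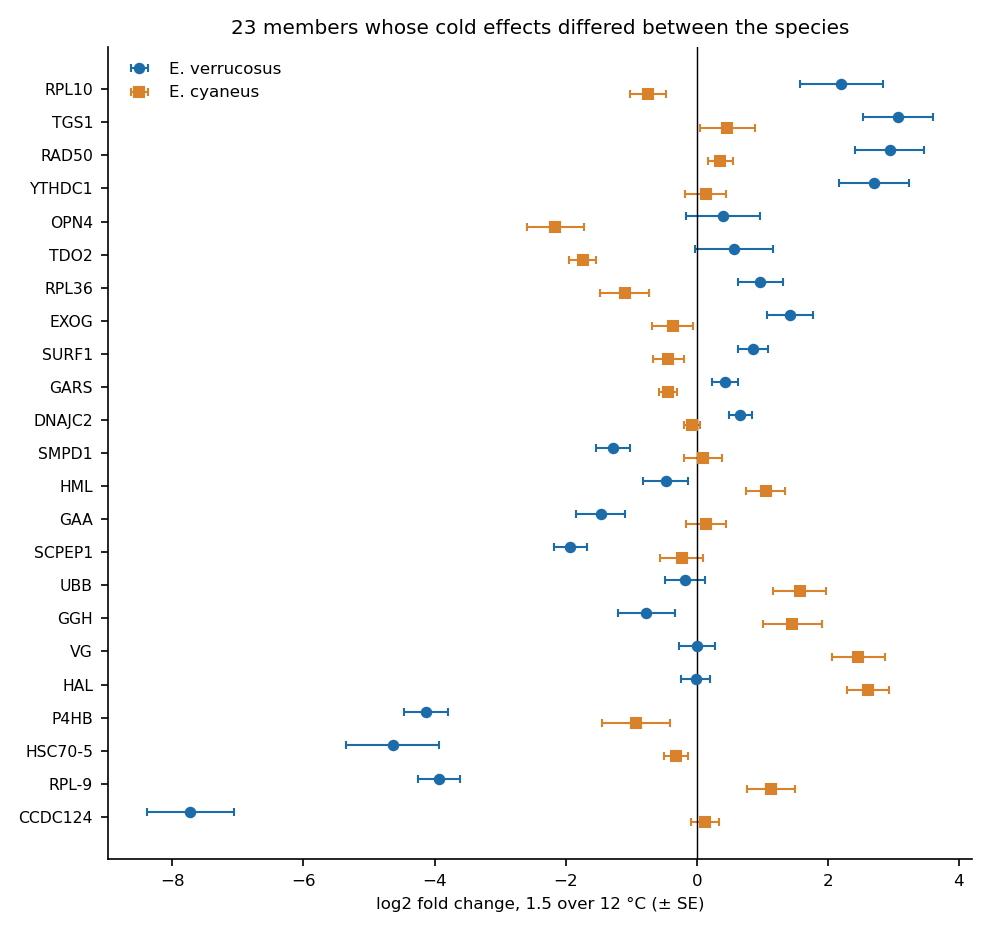
Log2 fold change of 1.5 over 12 °C with its standard error in the authors' deposited tables for 23 of the 24 symbols whose effects differed between E. verrucosus (circles) and E. cyaneus (squares), ordered by the difference. The symbols with the greatest differences, from CCDC124 to P4HB, lie far below 0 in E. verrucosus, and HAL and VG lie far above 0 in E. cyaneus alone.

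CCDC124, a coiled-coil protein that binds ribosomes in human cells, differed most. In E. verrucosus it had 0.148, 0, 0.434 and 0.123 CPM at 1.5 °C, or 11 counts in all 4 libraries, against 39.4, 64.2, 18.4 and 28.2 CPM at 12 °C. In E. cyaneus CCDC124 had 18.2, 13.7, 14.3 and 15.5 CPM at 1.5 °C, against 10.9, 11.8, 13.3 and 16.6 CPM at 12 °C. It was nearly absent from the cold pools of one species and steady in the other. The authors' deposited tables gave −7.73 (SE 0.66, adjusted p 2.4e-28) in E. verrucosus and 0.13 (SE 0.22, adjusted p 0.83) in E. cyaneus. Their difference was −7.85, with an interval from −9.22 to −6.48. In E. verrucosus the symbol rests on 1 transcript, so another transcript of the gene under another name would not be counted.

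Other symbols that fell in E. verrucosus, and whose effect there was more negative than in E. cyaneus by the Wald test, were RPL-9, HSC70-5, P4HB, SCPEP1, SMPD1 and GAA. RPL-9, spelled as nematode ribosomal genes are, was at −3.94 (SE 0.32, adjusted p 1.09e-31) in E. verrucosus and 1.13 (SE 0.37, adjusted p 0.0371) in E. cyaneus in the authors' deposited tables. It was the 1 symbol called in opposite directions. HSC70-5, the fly name of the mitochondrial Hsp70, was at −4.64 (SE 0.70, adjusted p 1.1e-08) and −0.32 (SE 0.19, adjusted p 0.38) in the same tables, with mean normalised counts of 72.4 in E. verrucosus and 2861 in E. cyaneus. P4HB, a disulfide isomerase that also serves collagen hydroxylation, was at −4.13 (SE 0.34, adjusted p 1.7e-31) and −0.92 (SE 0.52, adjusted p 0.35), with means of 291 and 34.4. PDI, another disulfide isomerase entry of the deposited tables, was at 0.24 (SE 0.41) in E. verrucosus and −0.32 (SE 0.21) in E. cyaneus at means of 10501 and 7969. These entries could not be joined to transcripts in E. verrucosus, so no value per library is given.

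The lysosomal enzymes among them fell less far. SCPEP1, a serine carboxypeptidase, was at −1.93 (SE 0.25, adjusted p 8.3e-12) in E. verrucosus and −0.23 (SE 0.32, adjusted p 0.78) in E. cyaneus in the authors' deposited tables. SMPD1, the acid sphingomyelinase, was at −1.28 (SE 0.26, adjusted p 4.6e-05) and 0.09 (SE 0.29, adjusted p 0.92) there. GAA, the lysosomal α-glucosidase that breaks down glycogen, had 1.73, 1.90, 2.11 and 0.983 CPM at 1.5 °C in E. verrucosus, against 1.94, 3.04, 3.82 and 4.18 CPM at 12 °C. In E. cyaneus GAA had 3.03, 2.67, 3.19 and 3.09 CPM at 1.5 °C, against 1.71, 2.36, 2.58 and 3.36 CPM at 12 °C. Its libraries overlapped by temperature in both species. The whole list of 10 digestive and lysosomal hydrolases had medians of −0.49 in E. verrucosus and −0.01 in E. cyaneus in the deposited tables, with 2 called lower in E. verrucosus and 2 called higher in E. cyaneus.

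RAD50, TGS1 and YTHDC1 rose in the cold in E. verrucosus from very low warm levels. RAD50, part of the complex that detects DNA double-strand breaks, had 6.56, 4.88, 6.39 and 13.0 CPM at 1.5 °C in E. verrucosus, against 1.17, 1.47, 0.332 and 1.13 CPM at 12 °C. In E. cyaneus it had 22.02, 20.1, 16.5 and 22.4 CPM at 1.5 °C, against 16.6, 15.3, 15.7 and 14.8 CPM at 12 °C, with a slight overlap. YTHDC1, a nuclear reader of methylated adenosine in RNA, had 3.85, 2.51, 4.28 and 7.86 CPM at 1.5 °C in E. verrucosus, against 0.648, 0.434, 0.996 and 0.750 CPM at 12 °C. In E. cyaneus YTHDC1 had 19.4, 15.2, 14.9 and 12.3 CPM at 1.5 °C, against 6.45, 11.5, 15.5 and 19.3 CPM at 12 °C, with full overlap. TGS1, which trimethylates the caps of small nuclear RNAs, had 6.27, 4.48, 6.45 and 12.8 CPM at 1.5 °C in E. verrucosus, against 1.04, 1.39, 0.830 and 0.429 CPM at 12 °C. The E. verrucosus library 4 at 1.5 °C was the highest for all 3 genes, and the other cold libraries also lay above every warm one. The authors' deposited tables gave RAD50 2.94 (SE 0.53, adjusted p 2.8e-06) in E. verrucosus and 0.36 (SE 0.19, adjusted p 0.30) in E. cyaneus. YTHDC1 was at 2.71 (SE 0.53, adjusted p 3.3e-05) and 0.14 (SE 0.32, adjusted p 0.87), and TGS1 at 3.07 (SE 0.53, adjusted p 1.1e-06) and 0.47 (SE 0.42, adjusted p 0.62), in the same tables.

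SURF1, an assembly factor of cytochrome c oxidase, had effects of opposite sign. In E. verrucosus SURF1 had 20.5, 18.9, 15.2 and 18.7 CPM at 1.5 °C, against 10.1, 10.4, 11.0 and 8.73 CPM at 12 °C, with no overlap. In E. cyaneus it had 15.9, 17.9, 19.2 and 21.8 CPM at 1.5 °C, against 28.7, 26.96, 26.2 and 16.1 CPM at 12 °C, with an overlap through 1 warm library. The authors' deposited tables gave 0.86 (SE 0.23, adjusted p 0.0072) in E. verrucosus and −0.43 (SE 0.23, adjusted p 0.31) in E. cyaneus, a difference of 1.29 with an interval from 0.65 to 1.92. DNAJC2, a ribosome-bound co-chaperone, was at 0.67 (SE 0.17, adjusted p 0.0059) and −0.08 (SE 0.12, adjusted p 0.82) in those tables. It had 71.7, 66.1, 82.0 and 64.1 CPM at 1.5 °C in E. verrucosus, against 48.1, 43.8, 41.2 and 41.99 CPM at 12 °C, and 77.3, 81.4, 77.0 and 89.8 CPM at 1.5 °C in E. cyaneus, against 72.2, 84.1, 86.3 and 77.1 CPM at 12 °C. EXOG, a mitochondrial nuclease, was at 1.43 (SE 0.35, adjusted p 0.0026) in E. verrucosus and −0.37 (SE 0.31, adjusted p 0.60) in E. cyaneus in the authors' deposited tables.

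Among the differing symbols called in E. cyaneus only, HAL, VG, TDO2 and OPN4 had the greatest effects. HAL, histidine ammonia-lyase, which starts histidine breakdown, had 31.6, 19.6, 22.7 and 23.1 CPM at 1.5 °C in E. cyaneus, against 1.97, 2.66, 4.36 and 5.59 CPM at 12 °C. The authors' deposited tables gave HAL −0.02 (SE 0.22, adjusted p 0.99) in E. verrucosus and 2.61 (SE 0.32, adjusted p 1.8e-13) in E. cyaneus. TDO2, tryptophan dioxygenase, which starts tryptophan breakdown, went the other way. It had 22.9, 14.5, 81.0 and 8.36 CPM at 1.5 °C in E. verrucosus, against 18.7, 17.2, 25.8 and 17.9 CPM at 12 °C. In E. cyaneus TDO2 had 67.1, 86.9, 69.0 and 104 CPM at 1.5 °C, against 235, 223, 255 and 301 CPM at 12 °C, so no cold library reached 1 warm one there. The authors' deposited tables gave TDO2 0.56 (SE 0.59, adjusted p 0.79) in E. verrucosus and −1.74 (SE 0.21, adjusted p 2.4e-14) in E. cyaneus. The list of 7 amino acid breakdown genes that holds both had medians of −0.42 in E. verrucosus and −0.16 in E. cyaneus.

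VG, vitellogenin, the precursor of egg yolk protein, had 1711, 1185, 1787 and 948 CPM at 1.5 °C in E. cyaneus, against 422, 200, 104 and 191 CPM at 12 °C. In the authors' deposited tables VG was at 0.01 (SE 0.27, adjusted p 0.99) in E. verrucosus and 2.47 (SE 0.41, adjusted p 5.3e-07) in E. cyaneus, at mean normalised counts of 261846 and 9236. OPN4, an opsin named after melanopsin, had 39.1, 125, 24.2 and 71.5 CPM at 1.5 °C in E. verrucosus, against 60.4, 74.9, 39.99 and 21.8 CPM at 12 °C. In E. cyaneus OPN4 had 8.35, 29.4, 21.95 and 13.8 CPM at 1.5 °C, against 24.5, 84.4, 116 and 88.9 CPM at 12 °C, with 1 warm library inside the cold range. The authors' deposited tables gave OPN4 0.40 (SE 0.56, adjusted p 0.87) in E. verrucosus and −2.16 (SE 0.43, adjusted p 7.7e-05) in E. cyaneus.

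**Figure D5:**
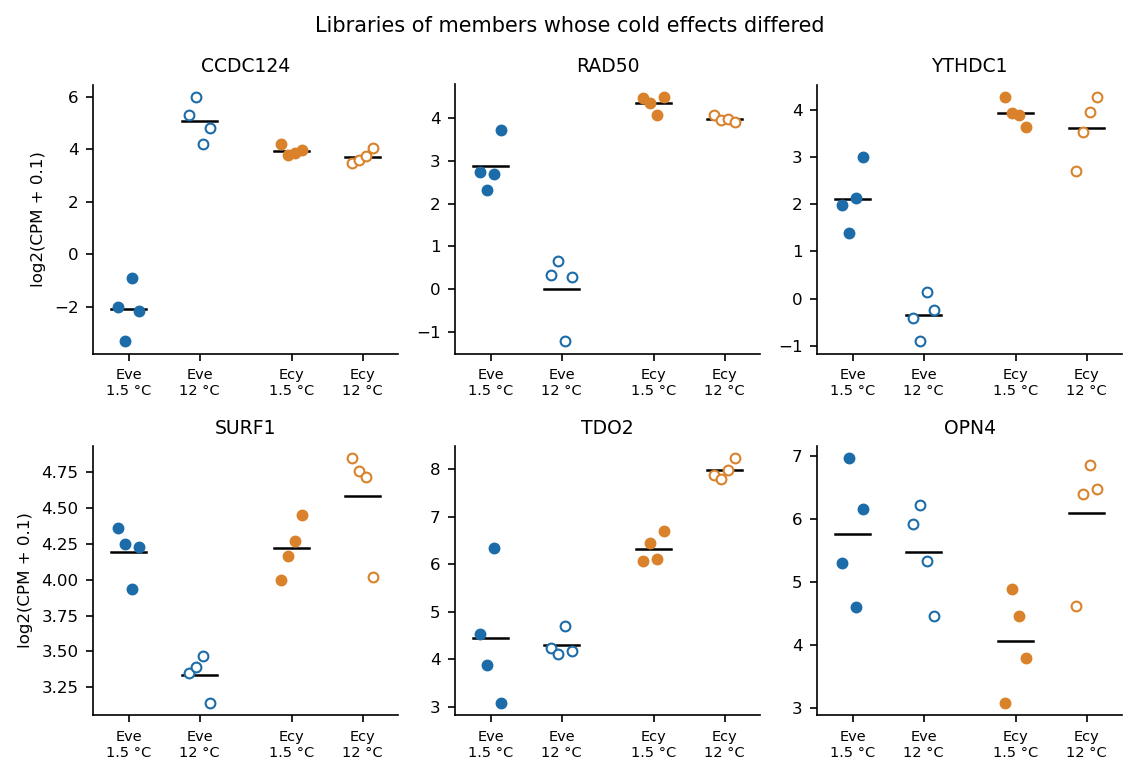
Level of each library, as log2(CPM + 0.1), for 6 joined symbols whose effects differed between E. verrucosus (Eve, blue) and E. cyaneus (Ecy, orange) at 1.5 °C (filled) and 12 °C (open), with the group mean as a line. CCDC124, RAD50, YTHDC1 and SURF1 separate by temperature in E. verrucosus, TDO2 separates in E. cyaneus, and OPN4 separates in neither.

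Immune, lectin and haemocyte proteins had medians of −0.19 in E. verrucosus and 0.40 in E. cyaneus over 5 symbols in the authors' deposited tables, with 0 called in E. verrucosus and 2 called higher in E. cyaneus. SAA1, named after the acute-phase serum amyloid A, had 348, 292, 242 and 318 CPM at 1.5 °C in E. verrucosus, against 607, 337, 163 and 241 CPM at 12 °C. In E. cyaneus SAA1 had 446, 1065, 387 and 453 CPM at 1.5 °C, against 269, 236, 110.3 and 120 CPM at 12 °C, with no overlap and 1 cold library far above the others. The authors' deposited tables gave SAA1 −0.19 (SE 0.43, adjusted p 0.93) in E. verrucosus and 1.57 (SE 0.40, adjusted p 0.0040) in E. cyaneus, a difference of −1.77 with an adjusted p of 0.107.

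Mitochondrial ribosomal proteins (6 symbols) had medians of 0.02 for E. verrucosus and −0.25 for E. cyaneus, and mitochondrially encoded respiratory subunits (6 symbols) had −0.06 and −0.58, in the authors' deposited tables. MRPS25 was the only call among them, lower in E. cyaneus at −0.78 (SE 0.15, adjusted p 5.3e-05), and was at −0.20 (SE 0.31, adjusted p 0.88) in E. verrucosus.

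The remaining differences were of several kinds. HML, hemolectin, a clotting protein of insect haemocytes, was at −0.47 (SE 0.35, adjusted p 0.62) in E. verrucosus and 1.05 (SE 0.29, adjusted p 0.011) in E. cyaneus in the authors' deposited tables. GGH, which trims folate side chains, was at −0.77 (SE 0.44, adjusted p 0.44) and 1.46 (SE 0.45, adjusted p 0.028), and GARS, the glycyl-tRNA synthetase, at 0.43 (SE 0.19, adjusted p 0.25) and −0.44 (SE 0.14, adjusted p 0.034), in the same tables. UBB, a polyubiquitin name, was at −0.18 (SE 0.31, adjusted p 0.91) in E. verrucosus and passed as higher in E. cyaneus (1.57, SE 0.40, adjusted p 0.0044) in the authors' deposited tables. Polyubiquitin transcripts repeat near-identical units, so how reads were assigned to UBB is uncertain. RPL10 and RPL36 of the large ribosomal subunit were at 2.20 and 0.97 in E. verrucosus and at −0.74 and −1.10 in E. cyaneus, again in the deposited tables. Their mean normalised counts were 41.6 and 109 in E. verrucosus and 5236 and 1926 in E. cyaneus. RPL36 passed in neither table on its own.

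Counts gave a stricter answer on a smaller set. edgeR's quasi-likelihood test of the difference, fitted to 861 joined symbols, called 4 members, SURF1, YTHDC1 and RAD50 as more positive in E. verrucosus and CCDC124 as more negative. It called 1.51% of the joined symbols, 0.813% as positive and 0.697% as negative. An unadjusted p under 0.05 was found for 43 of 463 members, where 119 of all 861 joined symbols had one. CCDC124 differed by −7.82 (SE 0.65, adjusted p 6.35e-07) and RAD50 by 2.51 (SE 0.47, adjusted p 0.00568) in edgeR's test, and both calls held in all 16 fits without 1 library. YTHDC1 differed by 2.44 (SE 0.54, adjusted p 0.0261) and lost its call in 7 of those fits, and SURF1 by 1.26 (SE 0.29, adjusted p 0.0322) and lost it in 11. TDO2 (2.31, adjusted p 0.117) and OPN4 (2.49, adjusted p 0.13) did not pass edgeR's test, and both passed in DESeq2 (adjusted p 0.0288 and 0.0356). DNAJC2 (0.67, adjusted p 0.197) and GAA (−1.18, adjusted p 0.208), which passed the Wald test, did not pass edgeR's test either. TDO2 rested on the E. verrucosus library 3 at 1.5 °C, without which its difference was 1.261 in edgeR's test (adjusted p 0.172), and it passed without the library 4 of that group (2.62, adjusted p 0.0161). Within E. verrucosus edgeR called 8 members higher and 5 lower, where it called 3.02% of joined symbols, 1.63% as higher and 1.39% as lower. Within E. cyaneus it called 0 members higher and 2 lower, where it called 0% of joined symbols higher and 0.232% lower. The members with an unadjusted p under 0.05 numbered 73 in E. verrucosus and 59 in E. cyaneus, where 141 and 94 of all 861 joined symbols had one.

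Among the calls of E. cyaneus alone, several showed the same sign with a smaller effect in E. verrucosus. BETATUB56D, a fly β-tubulin name, had 19.7, 21.8, 25.6 and 29.1 CPM at 1.5 °C in E. cyaneus, against 54.9, 87.2, 68.6 and 75.03 CPM at 12 °C, and the authors' deposited tables gave it −0.77 (SE 0.40, adjusted p 0.36) in E. verrucosus and −1.63 (SE 0.18, adjusted p 3.3e-17) in E. cyaneus. JUN, a transcription factor subunit of AP-1, had 19.4, 43.8, 30.5 and 35.9 CPM at 1.5 °C in E. verrucosus, against 54.9, 44.8, 54.2 and 32.8 CPM at 12 °C. In E. cyaneus JUN had 26.2, 45.3, 36.1 and 38.1 CPM at 1.5 °C, against 72.5, 60.8, 74.3 and 52.3 CPM at 12 °C, with no overlap. The authors' deposited tables gave JUN −0.55 (SE 0.35, adjusted p 0.52) in E. verrucosus and −0.78 (SE 0.18, adjusted p 0.0013) in E. cyaneus. GSTZ1, a glutathione transferase of tyrosine breakdown, had 8.54, 7.46, 8.81 and 7.86 CPM at 1.5 °C in E. verrucosus, against 18.01, 8.24, 14.2 and 7.87 CPM at 12 °C. In E. cyaneus GSTZ1 had 4.496, 3.799, 2.68 and 4.61 CPM at 1.5 °C, against 6.71, 6.79, 9.26 and 5.83 CPM at 12 °C, with no overlap.

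Calls of E. verrucosus alone held similar cases. CEBPG, a bZIP transcription factor, had 30.3, 34.1, 27.5 and 34.4 CPM at 1.5 °C in E. verrucosus, against 51.4, 56.03, 52.4 and 50.1 CPM at 12 °C. In E. cyaneus CEBPG had 14.6, 13.7, 22.6 and 18.1 CPM at 1.5 °C, against 32.0, 34.8, 41.8 and 20.6 CPM at 12 °C, with 1 warm library inside the cold range. The authors' deposited tables gave CEBPG the same effect in both, −0.75 (SE 0.20, adjusted p 0.0073) in E. verrucosus and −0.75 (SE 0.26, adjusted p 0.061) in E. cyaneus. C21ORF33 was at −1.42 (SE 0.37, adjusted p 0.006) in E. verrucosus and −0.88 (SE 0.32, adjusted p 0.072) in E. cyaneus in those tables. By contrast THOC7, of the complex that couples transcription to RNA export, had 51.3, 50.7, 61.4 and 42.8 CPM at 1.5 °C in E. verrucosus, against 33.6, 25.5, 33.1 and 26.7 CPM at 12 °C. In E. cyaneus it had 30.5, 43.2, 55.3 and 58.9 CPM at 1.5 °C, against 48.1, 54.01, 55.7 and 31.6 CPM at 12 °C, with full overlap. BNIP3, a mitochondrial protein of mitophagy, had 2.47, 1.90, 1.92 and 2.21 CPM at 1.5 °C in E. verrucosus, against 4.28, 6.85, 5.39 and 6.70 CPM at 12 °C. In E. cyaneus BNIP3 had 26.5, 30.8, 38.5 and 24.2 CPM at 1.5 °C, against 20.1, 48.5, 47.1 and 35.9 CPM at 12 °C. A call in one species alone does not show that the effects differ, and for the genes of this paragraph and the one on calls of E. cyaneus the test of the difference did not pass.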

How the data were processed

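Adult whole bodies of E. verrucosus and E. cyaneus were sequenced, with 4 libraries in each of 4 groups that follow the labels. Transcripts were assembled per species with Trinity, reduced with cd-hit-est, filtered with TransRate and kept only where they matched animal sequences, per the labels' protocols and the design text. The submitters' processing notes name the tools Salmon 1.1.0 and DESeq2 1.26.0. The library files hold estimated counts and TPM per transcript, per the file headers, deposited by the authors. TPM served only to weight transcript lengths. The authors' deposited tables hold, per gene name and per the file headers, a mean normalised count (a signal over 8 libraries), the log2 fold change, its error, the Wald statistic as a score, and both p-values, before and after adjustment. The number of series columns not used is 0.

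Entries alike ignoring case (67 in the table of E. verrucosus, 74 in that of E. cyaneus) were kept once, at the highest mean. The difference of both deposited log2 fold changes was tested with a two-sided Wald test, since the species share no library, with Benjamini-Hochberg adjustment over 2043 symbols and a threshold of 0.05. Intervals cover 95%.

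The files do not pair names with transcripts. A name was joined to the transcripts whose normalised mean equalled the deposited mean within a relative tolerance of 1e-12. This joined 2792 of 3920 names in E. verrucosus (2293 on 1 transcript) and 2801 of 3674 in E. cyaneus (2430 on 1). Decoy means shifted by 1e-05 gave 0 matches. For joins to transcripts from anywhere in the assembly these decoys covered only a part of the names. They covered 32 names in E. verrucosus and 29 in E. cyaneus for pairs, and 24 and 19 for larger sets. Joined symbols held 3.47 to 5.67% of a library's counts. Rounded estimated counts were summed per symbol and fitted with edgeR 4.0.16 (R 4.3.3), quasi-likelihood, in 1 fit of 16 libraries with TMM factors per species and filterByExpr (minimum count 10, minimum total 15). Both scripts were tested on simulated data. DESeq2 1.42.0 was an alternative.

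The members and the gene lists were chosen with earlier results of these data known. The genes that qualified to be named were those called in both tables (up to 15 per direction) and those with the 10 smallest p of the difference per sign. Those edgeR called for the difference and up to 4 of the most abundant of each list with at least 5 members qualified too. Many of these abundant list members are not described, and some list paragraphs show called members instead. Other members were named after their values were seen, among them SSB, PARN, DNAJC2, GAA, USP39, GAR1, HSPA8, NDUFA12, BETATUB56D, JUN, GSTZ1, CEBPG, C21ORF33, THOC7 and BNIP3. A few results were withheld and are not reported here. Replicate numbers of 1.5 and 12 °C libraries did not pair the samples.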

Additional observations from a re-analysis of the deposited data

Results flagged for a closer look

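The cold effects of E. verrucosus and E. cyaneus differed by a test of the difference itself for the symbols below, given as log2 fold change in E. verrucosus minus that in E. cyaneus. By the Wald test on the authors' deposited tables, the negative differences were −7.85 for CCDC124, −5.07 for RPL-9, −4.32 for HSC70-5, −3.20 for P4HB, −2.63 for HAL, −2.46 for VG, −2.23 for GGH, −1.75 for UBB, −1.70 for SCPEP1, −1.61 for GAA, −1.52 for HML and −1.37 for SMPD1. The positive ones were 2.94 for RPL10, 2.60 for TGS1, 2.58 for RAD50, 2.57 for YTHDC1, 2.56 for OPN4, 2.3 for TDO2, 2.07 for RPL36, 1.80 for EXOG, 1.29 for SURF1, 0.87 for GARS and 0.74 for DNAJC2. By edgeR on counts the differences were −7.82 for CCDC124, 2.51 for RAD50, 2.44 for YTHDC1 and 1.26 for SURF1.

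In 31 of 326 groups of 4 libraries 1 library lay far from the other 3 by Dixon's criterion, where chance flags about 1 in 20. In E. verrucosus at 1.5 °C these libraries held 319 CPM of ACADL, 305 of ATP5B, 74.7 of CCNL1, 240 of COX6C, 17800 of MLC2, 90.6 of NDUFA12, 356 of PDIA3, 7.99 of PRKAG2, 388 of SLC3A2 and 15.0 of USP39. In E. verrucosus at 12 °C they held 4.66 CPM of C21ORF33, 44.0 of CCNL1, 42.3 of CDK9, 97.2 of FAH, 963 of HNRNPLL, 35.6 of MRPL9, 101 of NDUFA12, 7.38 of SRC42A and 184 of STT3A. In E. cyaneus at 1.5 °C they held 111 CPM of AHSA1, 181 of DNAJC7, 1.19 of GSTD6, 1060 of SAA1 and 249 of SRPR. In E. cyaneus at 12 °C they held 95.6 CPM of CCNL1, 28.8 of GABARAPL1, 113 of MAK16, 686 of NDUFB5, 750 of SLC3A2, 1150 of SOD2 and 11700 of UNC-89.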

How the results depend on the processing

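Counts from the deposited tables moved with the level and the threshold. At a minimum mean of 100 the differences numbered 14, against 24 at 20, and at an adjusted p of 0.01 only 1 symbol was called in both tables, against 7. Counts from edgeR were 13 differences, 26 effects in E. verrucosus and 2 in E. cyaneus over all joined symbols. DESeq2 gave 28 (20 positive, 8 negative, against 7 and 6), 45 and 23, and a fit per species gave 20 differences and 22 effects in E. cyaneus. No filter on low counts gave 0 effects in E. cyaneus. The replicate block gave 8 differences, 12 effects in E. verrucosus and 0 in E. cyaneus. Same-numbered libraries correlated by −0.18 to 0.13 in E. verrucosus and −0.11 to 0.06 in E. cyaneus, and only libraries 2 and 3 of E. verrucosus correlated best with their own number. Without the 2 libraries that stood apart, chosen after the data were seen, edgeR called 24 differences and 63 effects in E. verrucosus, and the same-sign share was 64.1%. Without 1 library the differences numbered 8 to 20, the effects 15 to 44 in E. verrucosus and 0 to 4 in E. cyaneus, and the same-sign share ran from 51.0 to 64.8%. Differences near 0 changed sign. Over fits without 1 library that of CCT7 ran from −0.078 to 0.197 and that of GABRB2 from −0.222 to 0.127, and each changed sign only without the E. verrucosus library 3 at 12 °C. CCT7 was at −0.017 without both libraries that stood apart. SLS ran from −0.301 to 0.255 without 1 library and was at −0.405 without both that stood apart. It turned positive without the E. verrucosus library 3 at 12 °C, its library 3 at 1.5 °C (0.034) or the E. cyaneus library 2 at 12 °C (0.049), and at 0.079 with the authors' own factors. The cause was not tested. Depth limits low symbols, such as CCDC124 with 11 counts over 4 cold libraries.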
